A study of Homo sapiens with 4 samples.

Results

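The noncoding host genes of small nucleolar RNAs (snoRNAs) that belong to the 5'TOP class were examined in LN229 cells, an established human glioblastoma line, after silencing of the small GTPase RAB38. Members were taken by gene symbol, namely SNHG1, SNHG5, SNHG6, SNHG7, SNHG8, SNHG12, SNHG15, SNHG16, GAS5 and ZFAS1, and 9 of the 10 were among the 22458 named rows of the deposited table. SNHG1 is not analysed here. Cells received a nontargeting siRNA pool (NT, 2 arrays) or a pool against RAB38 (siRAB38, 2 arrays), transfected without serum. Serum was brought to 1.5% after a day, and RNA was taken from both groups 48 h after transfection and measured on Affymetrix arrays. Each value below is a log2 expression value made by the authors with RMA, a method that corrects background, equalises the distributions of the arrays and summarises the probes of a gene. The labels do not say whether the arrays are separate cultures. The study's statistics section uses n for independent experiments, and its captions for the array analysis give n = 2. Neither describes the arrays further, so p-values rest on array-to-array spread, which may be technical. In a bulk sample, fewer cells expressing a gene and less of its RNA per cell cannot be told apart. Levels of different genes depend on their probes and were not ranked, and a row is called dim or low only where it lay under the median of every array.

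A snoRNA guides the chemical modification of ribosomal RNA. Box C/D snoRNAs (SNORD) direct 2'-O-methylation, and H/ACA snoRNAs (SNORA) direct pseudouridylation. Most human snoRNAs lie in introns of a host gene and are released when the host transcript is spliced, while the exons are joined into an RNA that, in this class, has little coding capacity and is often removed by nonsense-mediated decay. Transcripts of the 5'TOP class begin with a cytosine followed by a run of pyrimidines, the feature that also opens the mRNAs of ribosomal proteins and through which their translation follows nutrient and mTOR signalling.

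The sequences around the start sites are shown first because the class is named for them. RefSeq promoters of build GRCh38.p14 were matched by symbol for 8 of the 10 hosts, 7 of them measured, and SNHG6 and SNHG15 had no entry. Each line gives 50 bases on the transcribed strand, 25 before the annotated start and 25 from it onward, and capitals mark the longest unbroken run of C and T in that window. The windows lie for SNHG8 at chr4:118278737-118278786 (+ strand), SNHG12 at chr1:28581849-28581898 (- strand), SNHG7 at chr9:136728160-136728209 (- strand), ZFAS1 at chr20:49278617-49278666 (+ strand), SNHG5 at chr6:85678709-85678758 (- strand), SNHG16 at chr17:76557739-76557788 (+ strand) and GAS5 at chr1:173869021-173869070 (- strand).
SNHG8: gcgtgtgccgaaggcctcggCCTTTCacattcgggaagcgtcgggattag
SNHG12: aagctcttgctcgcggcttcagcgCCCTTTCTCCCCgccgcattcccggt
SNHG7: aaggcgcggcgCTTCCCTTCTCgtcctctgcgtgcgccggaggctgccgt
ZFAS1: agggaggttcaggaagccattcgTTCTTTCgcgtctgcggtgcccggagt
SNHG5: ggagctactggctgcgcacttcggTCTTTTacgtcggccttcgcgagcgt
SNHG16: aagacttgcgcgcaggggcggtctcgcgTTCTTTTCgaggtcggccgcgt
GAS5: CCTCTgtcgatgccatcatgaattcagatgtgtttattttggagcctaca
The run of SNHG12 was 12 bases long and began 1 base before the annotated start, a length that 5.17% of the 35116 promoters reach in the same window. SNHG7 had 11 bases (7.27% of promoters), beginning at position -14 and ending before the annotated start. SNHG16 had 8 (20.7%), beginning at position 4 of the annotated transcript, and ZFAS1 had 7 (30.1%), beginning at position -2. The runs of SNHG8 and SNHG5 were 6 bases (44.6% of promoters), beginning at positions -5 and -1. That of GAS5 was 5 bases (65.4%) and lay at the upstream edge of its window. Runs were counted wherever they lay in the window, so a length need not be that of a run opening the transcript. Over all promoters the median run was 5 bases. The table holds 1 start per gene, which need not be the one used in LN229 cells.

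The whole promoter windows of SNHG8 and SNHG12 are given because these 2 hosts had the lowest values relative to NT. They run from 250 bases before the start to 50 bases from it, SNHG8 at chr4:118278512-118278811 (+ strand) and SNHG12 at chr1:28581824-28582123 (- strand), with the letters TATAA nearest the start in capitals.
SNHG8: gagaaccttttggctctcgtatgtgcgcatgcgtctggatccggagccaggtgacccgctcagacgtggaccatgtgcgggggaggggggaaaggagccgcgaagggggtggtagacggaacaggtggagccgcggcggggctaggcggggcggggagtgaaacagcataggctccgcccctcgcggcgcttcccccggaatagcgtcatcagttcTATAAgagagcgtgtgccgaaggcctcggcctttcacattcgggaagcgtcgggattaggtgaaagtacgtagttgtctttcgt
SNHG12: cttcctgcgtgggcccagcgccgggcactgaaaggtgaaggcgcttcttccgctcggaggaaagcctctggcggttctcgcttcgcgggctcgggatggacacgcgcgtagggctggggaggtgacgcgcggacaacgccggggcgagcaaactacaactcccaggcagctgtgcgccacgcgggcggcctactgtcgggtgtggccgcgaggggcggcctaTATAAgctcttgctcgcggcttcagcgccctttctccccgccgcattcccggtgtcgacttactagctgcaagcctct
TATAA began 34 bases before the start in SNHG8 and 28 bases before it in SNHG12. On the transcribed strand, TATAA stood within 50 bases before the start in 5 of the 8 hosts (SNHG5, SNHG7, SNHG8, SNHG12 and ZFAS1) and in 4.74% of all promoters. On either strand of the whole 300 bases it was found in 6 of 8 hosts and in 20.4% of promoters. CACGTG, the E-box that c-Myc can bind, which reads the same on both strands and shares no match with TATAA here, was found in SNHG7 alone among the 8 hosts and in 7.26% of promoters. These matches describe the letters of the windows and were not tested for function.

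The arrays were checked before the hosts were compared. RAB38 had log2 values of 4.69 and 4.78 in NT against 2.52 and 3.43 in siRAB38, so the first siRAB38 array held the lower level. All 12 glioma line markers had a row. VIM lay between 11.25 and 11.36, SOX2 between 7.42 and 7.58 and NES between 8.28 and 8.42. GFAP (between 2.81 and 3.35) and AQP4 (between 1.34 and 1.73) were low, and the rest of this list lay above the array medians. Of 5 immune markers, CD68, a lysosomal protein gene, lay between 7.51 and 8.27, and PTPRC, CD3E, CD14 and AIF1 lay between 1.23 and 2.26. Of 4 neuronal markers, 3 were above 0 and 0 below, with SNAP25 at a log2 fold change of 0.64. The remaining neuronal marker, SYT1, had the same value of 6.12 in all 4 arrays. All 4 endothelial markers were below 0, with list means of 1.86 to 2.15 in the 4 arrays. Among epithelial markers, KRT8 lay between 4.78 and 5.63 and KRT18 between 6.68 and 6.89, while EPCAM (1.38 to 2.27) and CDH1 (2.22 to 2.56) were low. Arrays correlated at 0.993 to 0.994 across genes. Interferon response genes differed between single arrays, with centred means over 19 genes of 0.75 and -0.24 for the NT arrays and -0.95 and 0.44 for the siRAB38 arrays, and the part of these lists in the results below was not tested. Each gene was compared with limma over the 22458 genes, and 0 genes passed a Benjamini-Hochberg adjusted p of 0.05. At an unadjusted p under 0.05, 1539 genes (6.85%) differed, 697 (3.1%) lower and 842 (3.75%) higher in siRAB38. With 2 arrays against 2, an exact two-sided permutation test gives no p below 0.33.

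Most of the measured snoRNA hosts had lower values in siRAB38 than in NT cells, and SNHG8 and SNHG12 stood lowest. The log2 fold change of siRAB38 over NT was below 0 in 8 of 9 hosts, against 48.4% of all genes, and above 0 in 1, against 51.5%, with a median of -0.14 against 0.01 over all genes. In 5 hosts the siRAB38 arrays were both under the lower NT array (SNHG7, SNHG8, SNHG12, SNHG15 and ZFAS1), as in 17.2% of all genes, and in SNHG16 both were over the higher one (18.8% of all genes). At an unadjusted p under 0.05, 2 of the 9 were lower, SNHG8 and SNHG12 (3.1% of all genes), and 0 were higher (3.75%). The count of 2 became 0 with the methods' t-test (3.1% of all genes). It also fell in most of the runs with 1 array left out, in which 1 group holds 1 array. None passed after adjustment over all genes, with adjusted p between 0.72 and 0.98 in limma. The hosts were chosen with earlier results of these data known, so these counts describe the list and carry no test of their own. Without NT replicate 1 the median was -0.29 and without siRAB38 replicate 2 it was -0.22.

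**Figure D1:**
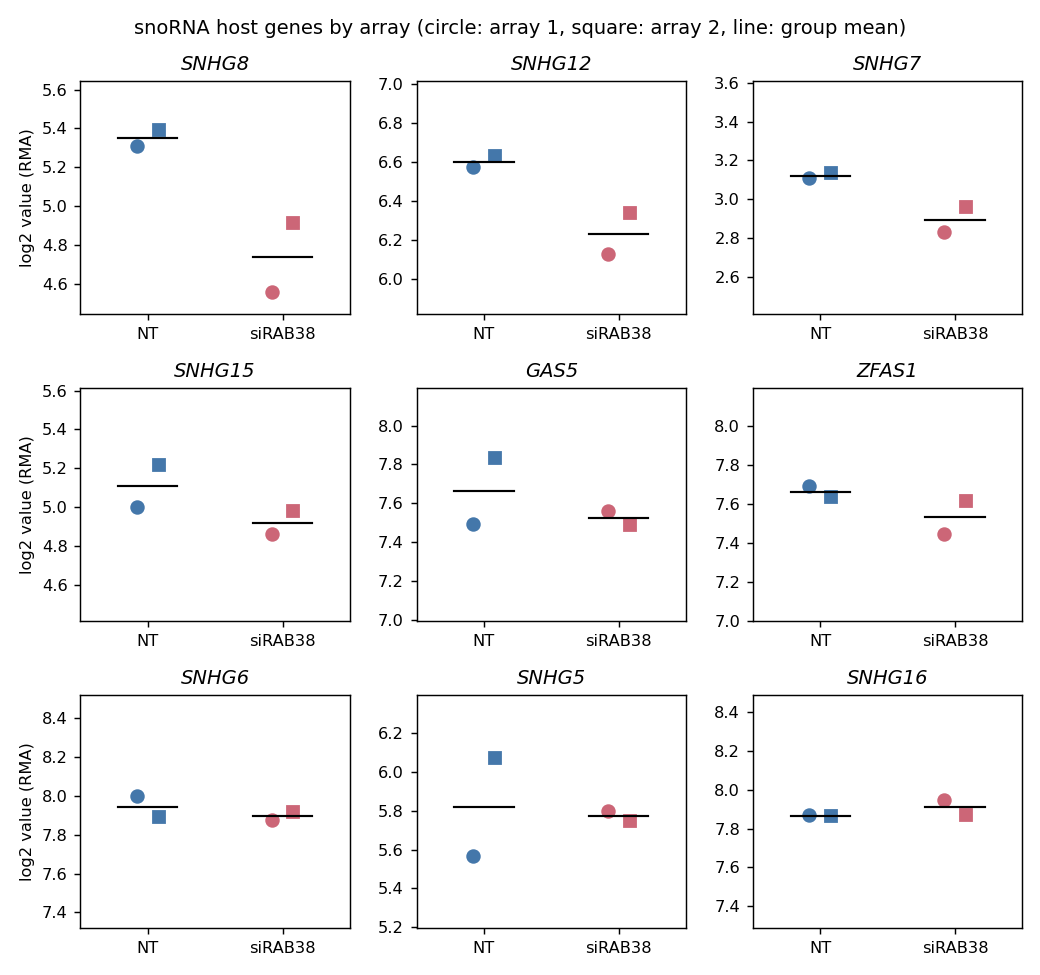
Log2 values of the 9 measured snoRNA host genes in the 4 arrays, ordered by log2 fold change, with circles for array 1, squares for array 2 and a line at each group mean of 2 arrays. Each vertical axis spans the same distance, and the groups are separate in SNHG8, SNHG12 and SNHG7 by at least 0.15 but within 0.03 of touching in SNHG15 and ZFAS1.

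SNHG8, which carries the H/ACA snoRNA SNORA24, had log2 values of 5.31 and 5.39 in NT against 4.56 and 4.91 in siRAB38. The groups did not overlap, and the gap between the lowest NT and the highest siRAB38 array was 0.40. NT averaged 5.35 ± 0.06 (SD, n = 2) and siRAB38 4.74 ± 0.25 (SD, n = 2), 65.3% of NT. This is a log2 fold change of -0.61 with a standard error of 0.15 and a 95% interval of -1.0 to -0.23 (limma, adjusted p = 0.72). SNHG8 ranked 256th of 22458 genes by unadjusted p (0.00921, limma). With 1 array left out the log2 fold change ran from -0.79 to -0.44, the weaker value without siRAB38 replicate 1.

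SNHG12 hosts the H/ACA snoRNAs SNORA16A, SNORA44 and SNORA61 and the box C/D snoRNA SNORD99. It had log2 values of 6.58 and 6.63 in NT against 6.12 and 6.34 in siRAB38, again without overlap and with a gap of 0.24. NT averaged 6.60 ± 0.04 (SD, n = 2) and siRAB38 6.23 ± 0.15 (SD, n = 2), or 77.3% of NT. The corresponding log2 fold change was -0.37 with a standard error of 0.12 and a 95% interval of -0.68 to -0.06 (limma, adjusted p = 0.72, unadjusted p = 0.0281). It ran from -0.48 without siRAB38 replicate 2 to -0.26 without siRAB38 replicate 1.

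SNHG7, host of SNORA17A and SNORA17B, had log2 values of 3.11 and 3.13 in NT against 2.83 and 2.96 in siRAB38. The NT arrays were close together and the siRAB38 arrays below them, and the gene was dim, under the median of every array (3.47 to 3.51). It differed by -0.23 on the log2 scale (standard error 0.11, 95% interval -0.50 to 0.05). SNHG15, host of SNORA9, had 5.00 and 5.21 in NT and 4.86 and 4.98 in siRAB38. These groups were separated by 0.02 while the NT arrays differed by 0.21, so the log2 fold change of -0.19 (standard error 0.13) was within the spread of the arrays, and it was -0.08 without NT replicate 2 and -0.29 without NT replicate 1. ZFAS1, which hosts the box C/D snoRNAs SNORD12, SNORD12B and SNORD12C, had 7.69 and 7.63 in NT and 7.45 and 7.61 in siRAB38. Its groups were also 0.02 apart, and differed by -0.13 on the log2 scale (standard error 0.12), or by -0.05 without siRAB38 replicate 1 and -0.22 without siRAB38 replicate 2.

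GAS5, named for its accumulation in growth-arrested cells and host of a series of box C/D snoRNAs, had log2 values of 7.49 and 7.83 in NT against 7.56 and 7.49 in siRAB38. The first NT array lay among the siRAB38 arrays and only the second stood above them. Its log2 fold change of -0.14 (standard error 0.15, 95% confidence interval from -0.52 to 0.24) became 0.032 without NT replicate 2 and -0.31 without NT replicate 1. SNHG5, host of SNORD50A and SNORD50B, showed the widest spread, with 5.57 and 6.07 in NT around 5.80 and 5.75 in siRAB38. The NT arrays differed by 0.51 and the groups by -0.05 (95% confidence interval from -0.53 to 0.43), and the log2 fold change ran from -0.30 without NT replicate 1 to 0.21 without NT replicate 2.

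SNHG6 and SNHG16 differed little between arrays. SNHG6, host of SNORD87, had 8.0 and 7.89 in NT and 7.87 and 7.92 in siRAB38, with overlapping arrays and a log2 fold change of -0.05 (95% confidence interval from -0.32 to 0.23), which was 0.0059 without NT replicate 1. SNHG16, host of SNORD1A, SNORD1B and SNORD1C, was the 1 host above 0. It had 7.869 and 7.865 in NT and 7.950 and 7.872 in siRAB38, a gap of 0.004, with a log2 fold change of 0.04 (95% confidence interval from -0.22 to 0.31) that ran from 0.0052 without siRAB38 replicate 1 to 0.082 without siRAB38 replicate 2. For both genes the interval leaves room for a change of the size seen in SNHG15.

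**Figure D2:**
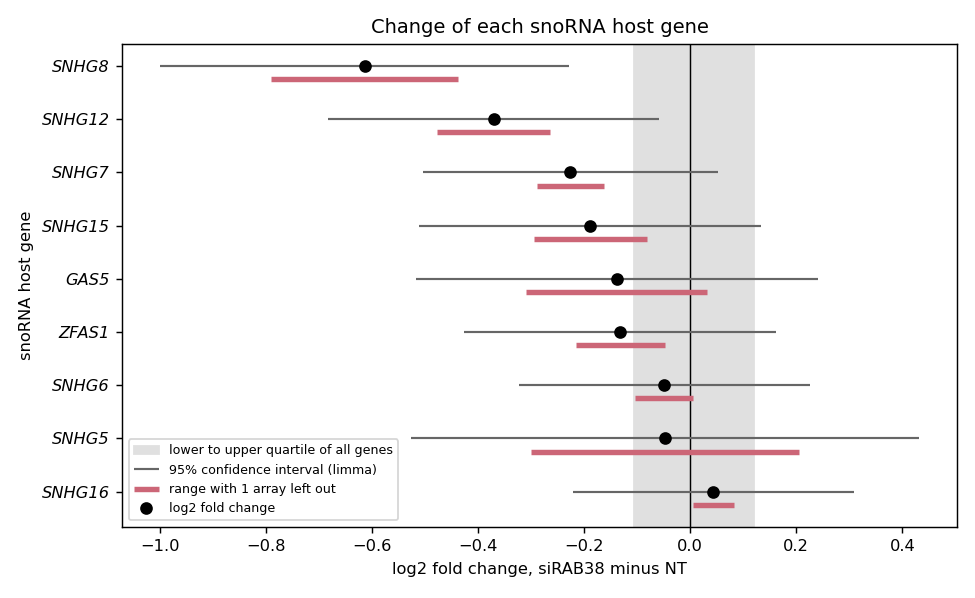
Log2 fold change (siRAB38 minus NT) of each measured host with its 95% confidence interval from limma, the range with 1 array left out, and the quartile range of all 22458 genes (-0.11 to 0.12) in grey. The intervals of SNHG8 and SNHG12 stay below 0, and the ranges of GAS5, SNHG5 and SNHG6 cross it.

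The kind of snoRNA carried was noticed to go with these values after they were seen, and it was not tested. By RefSeq positions, 5 measured hosts hold a SNORA gene (SNHG7, SNHG8, SNHG12, SNHG15 and GAS5, which holds SNORA103 beside 10 SNORD genes), and their log2 fold changes ran from -0.61 to -0.14 with a median of -0.23. The 4 hosts with SNORD genes only (SNHG5, SNHG6, SNHG16 and ZFAS1) ran from -0.13 to 0.04, with a median of -0.05. GAS5 (-0.139) stood at the edge of its set next to ZFAS1 (-0.132), and its place there follows from SNORA103 alone. Outside the class, 7 noncoding hosts with a SNORA gene had a median of -0.22, with 6 of 7 below 0. Another 5 with SNORD genes only, the dim row MEG8 among them, had a median of 0.05, with 2 of 5 below 0. These SNORA and SNORD sets overlapped in range, from -0.35 to 0.20 and from -0.25 to 0.48. The other 3 noncoding hosts, which hold only a gene named SCARNA, had a median of -0.18, with 3 of 3 below 0.

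The snoRNAs carried by the hosts had values on both sides of 0, more of them above it. All 35 snoRNAs listed for the 10 hosts lie inside their host in RefSeq, and 31 had a row, 7 of them from SNHG1. Of these 31, 11 had a log2 fold change below 0 and 20 above (48.4% of all genes lie below 0), with a median of 0.05. The groups were separate in 10, lower in siRAB38 in 5 and higher in 5, or 16.1% each way where all genes give 17.2% and 18.8%. In limma, 0 passed an adjusted p of 0.05, and 0 were called at an unadjusted p under 0.05 (6.85% of all genes). RNA had been purified on silica columns, which keep little RNA as short as a snoRNA, and which RNA these rows measured was not tested. The 2 snoRNAs of SNHG7 are not analysed here.

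SNORA24, carried by SNHG8, had log2 values of 6.40 and 6.83 in NT against 6.63 and 6.62 in siRAB38, both of the latter between the NT arrays. Its log2 fold change was 0.00 (95% confidence interval from -0.42 to 0.43), beside -0.61 for the host, and the difference between the 2 was not tested. In SNHG12, SNORA61 (-0.24) and SNORA44 (-0.17) were lower in both siRAB38 arrays than in both NT arrays. The gaps were 0.07 and 0.05, and 17.2% of all genes were lower in this way. SNORD99, a dim row at 0.14, was higher in both siRAB38 arrays (18.8% of all genes), and SNORA16A had -0.01. The 9 measured box C/D snoRNAs of GAS5 ran from -0.34 for SNORD75 to 0.14 for SNORD76, 5 below 0 and 4 above. In SNHG16 all 3 were above 0, up to 0.59 for SNORD1B, which had 4.06 and 4.42 in NT and 4.49 and 5.17 in siRAB38. All 3 of ZFAS1 were above 0 (0.01 to 0.21), against -0.13 for the host. Of the 7 from SNHG1, 6 were above 0 with a median of 0.09, and SNORD31 had -0.35.

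**Figure D3:**
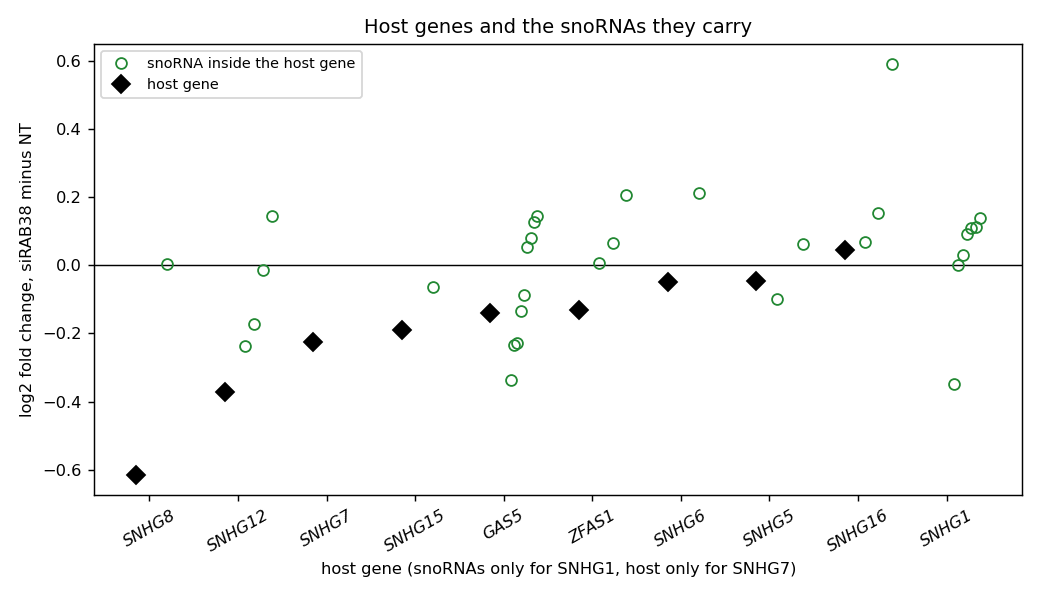
Log2 fold change (siRAB38 minus NT) of each host (black diamonds) and of the snoRNAs inside it (green circles, 1 per snoRNA), hosts ordered from SNHG8 (-0.61) to SNHG16 (0.04) and then SNHG1, for which snoRNAs alone are drawn. SNORA24 lies at 0.00 beside SNHG8, and the 9 snoRNAs of GAS5 spread to both sides of 0.

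Replicate number moved with the snoRNA values. In 21 of the 31 snoRNAs (67.7%) the second array exceeded the first in both groups, as it did in 98 of 199 other snoRNA rows outside the imprinted SNORD113 to SNORD116 clusters (49.2%) and in 24.2% of all genes. Among the hosts this held in 4 of 9, and across all genes the deviations of same-numbered arrays correlated at -0.05. The hosts' centred means were 0.04 and 0.15 for NT against -0.14 and -0.05 for siRAB38, with no overlap between the groups. Single hosts did not all follow these means. In the first NT array SNHG5, GAS5, SNHG16 and SNHG15 lay below 0 after centring (-0.23, -0.10, -0.02 and -0.01). SNHG6, ZFAS1, SNHG7, SNHG12 and SNHG8 lay above 0 in that array, from 0.08 for SNHG6 to 0.27 for SNHG8. In 6 of 9 hosts the first siRAB38 array, which also had the lower RAB38 value, was the lower of the pair (48.8% of all genes), and the part of this in the results was not tested.

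**Figure D4:**
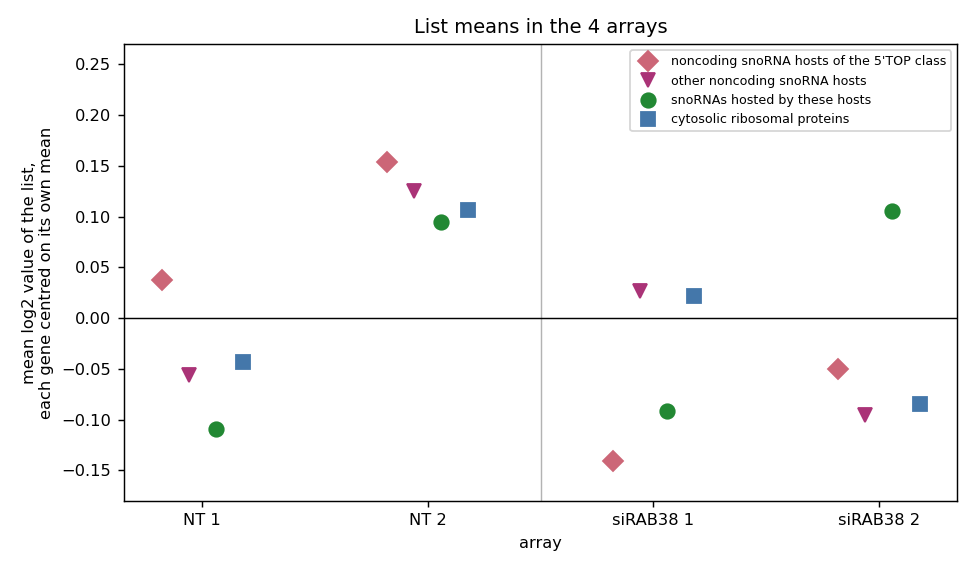
Mean log2 value of 4 gene lists in each array after centring each gene on its own mean over the 4 arrays, with 1 symbol per list. The mean of the hosts (diamonds) is above 0 in both NT arrays and below 0 in both siRAB38 arrays. The mean of the snoRNAs inside them (circles) is low in the first and high in the second array of each group.

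Other snoRNA hosts gave similar medians with values on both sides of 0. Of 15 further noncoding hosts, 11 lay below 0 and 4 above, the median being -0.16. The groups were separate and lower in siRAB38 in 7, and separate and higher in 2 (17.2% and 18.8% of all genes). At an unadjusted p under 0.05, 1 was lower, SNHG3, and 1 higher, MEG8 (3.1% and 3.75% of all genes). SNHG3, a neighbour of SNHG12 on chromosome 1 that carries the H/ACA snoRNAs SNORA73A and SNORA73B, had 6.73 and 6.76 in NT and 6.43 and 6.36 in siRAB38. Its log2 fold change of -0.35 (standard error 0.10) was close to that of SNHG12. EPB41L4A-AS1 had -0.22, SNHG18 had 0.27 and MEG8, a dim row between 1.32 and 2.06, had 0.48. Of 25 protein-coding hosts outside the ribosome, 17 lay below 0 with a median of -0.11. The groups were separate and lower in siRAB38 in 10 of the 25, and separate and higher in 2 (17.2% and 18.8% of all genes). At an unadjusted p under 0.05, 1 was lower (3.1% of all genes). That gene was DKC1, the pseudouridine synthase of H/ACA particles, with 7.82 and 7.79 in NT and 7.44 and 7.49 in siRAB38 and a log2 fold change of -0.33 (standard error 0.10). HSPA8, a constitutive chaperone, had -0.22, and TAF1D, a subunit of the polymerase I selectivity factor, and the initiation factor EIF5 each had -0.21.

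The 5'TOP mRNAs had medians nearer to 0 than the noncoding hosts. Of 50 measured genes of cytosolic ribosomal proteins, 31 lay below 0 and the median was -0.04, with 3 lower and 0 higher at an unadjusted p under 0.05 (3.1% and 3.75% of all genes). The groups were separate and lower in siRAB38 in 12 of the 50, and separate and higher in 2 (17.2% and 18.8% of all genes). RPL9, with log2 values between 2.81 and 3.55, had a log2 fold change of -0.57, RPS3A of -0.40 and RPS24 of -0.37, while RPL37 had 0.38. RPS3A is a dim row, between 1.65 and 2.19. Other rows of this list were also dim, RPL3, RPL10, RPL13A and RPL26 among them, and the list median includes them. Another 29 of the 79 listed ribosomal protein genes are not analysed here. Of 14 other 5'TOP mRNAs, 10 lay below 0 with a median of -0.07 and 1, NPM1, was lower at an unadjusted p under 0.05 (3.1% of all genes). In 6 of the 14 the groups were separate and lower in siRAB38, and in 0 separate and higher (17.2% and 18.8% of all genes). NPM1, a nucleolar chaperone of ribosome assembly, had 7.40 and 7.83 in NT and 7.09 and 7.01 in siRAB38, a log2 fold change of -0.57. EIF3F had -0.25, NACA had -0.24 and EEF1B2, which itself carries snoRNAs, had -0.14. The difference between these lists and the noncoding hosts was not tested.

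**Figure D5:**
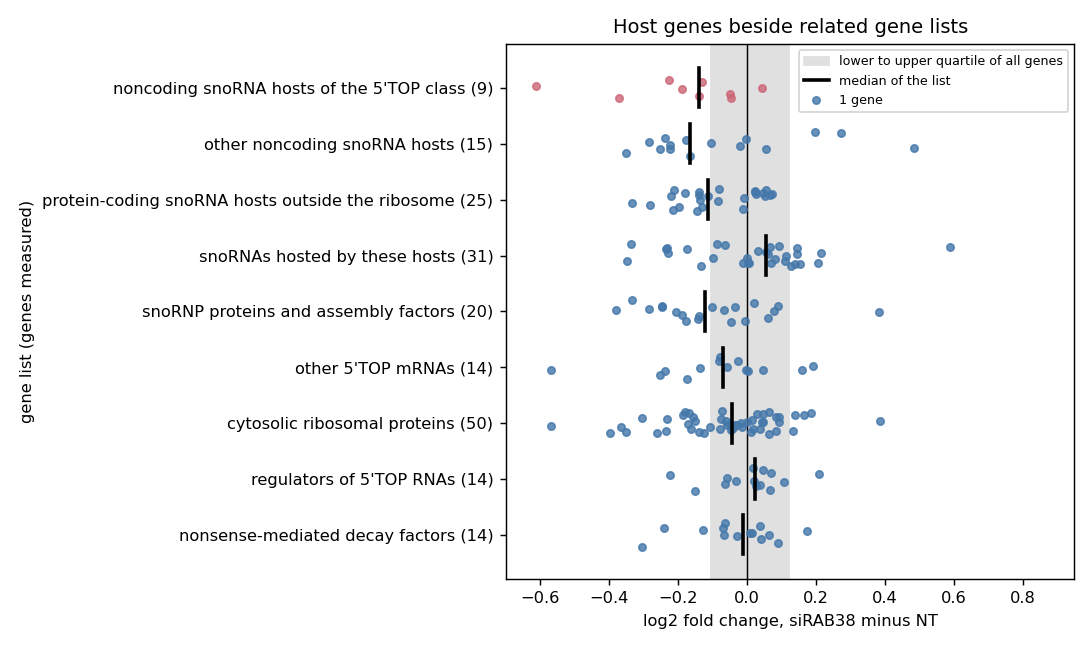
Log2 fold change (siRAB38 minus NT) of each measured gene in 9 lists, with the number of genes in brackets, a bar at each list median and the quartile range of all genes in grey. Medians run from -0.16 for the other noncoding hosts and -0.14 for the noncoding hosts of the 5'TOP class to 0.05 for the snoRNAs inside them.

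Genes for snoRNP proteins and their assembly factors lay below 0 in 15 of 20 cases, the median being -0.12, and 9 were separate and lower in siRAB38 (17.2% of all genes). Besides DKC1, the assembly factors RUVBL2 (-0.28) and RPAP3 (-0.25) and the nucleolar chaperone NOLC1 (-0.25) had the smallest p, and 1 of the 20, DKC1, was lower at an unadjusted p under 0.05 (3.1% of all genes). Factors of nonsense-mediated decay, which removes spliced GAS5 RNA, were balanced, with 7 of 14 below 0 and a median of -0.01. At an unadjusted p under 0.05, 0 were called in either direction (6.85% of all genes). UPF2 had -0.24, the exon junction protein RBM8A had -0.31, CASC3 had -0.13 and NBAS had 0.17. Among 7 mRNAs known as targets of that pathway, ATF3 had 0.51, GADD45B had -0.40, GADD45A had 0.14 and TBL2 had -0.06. Of these 7, 1 was lower at an unadjusted p under 0.05, GADD45B, and 1 higher, ATF3 (3.1% and 3.75% of all genes). The 14 regulators of 5'TOP RNAs include LARP1, which binds the 5'TOP sequence, and subunits of mTOR complex 1. Of these 14, 5 lay below 0 with a median of 0.02, and 0 were called at an unadjusted p under 0.05 (6.85% of all genes). EIF4EBP2, a repressor of cap-dependent translation, had -0.22, LARP4B had -0.15, the S6 kinase gene RPS6KB2 had 0.21 and TIA1 had 0.11.

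MYC, whose protein activates many genes of ribosome assembly, had log2 values of 5.64 and 5.90 in NT against 5.49 and 4.93 in siRAB38. Its log2 fold change was -0.57 (standard error 0.22) with separate groups (17.2% of all genes are lower in this way), and its part in the values of the hosts was not tested. Protein-coding genes that start within 2000 bases of a host on the other strand were found for 2 hosts. SLC3A2, whose start lies 224 bases from that of SNHG1, had 9.56 and 9.65 in NT and 9.71 and 9.54 in siRAB38. ZBTB37, 665 bases from GAS5, had 5.44 and 5.30 in NT and 5.38 and 5.55 in siRAB38, so both overlapped between the groups. Outside the class, the genes whose centred profile over the 4 arrays was nearest to the mean profile of the 9 hosts were TYSND1, PSMA5, ZNF326, MIR31HG and PLD6. Their root mean square distances were 0.00783 to 0.0127 on the log2 scale. The 11221 candidates were genes whose mean lay above the median of all genes, and snoRNA hosts outside the class were not excluded. For comparison, the distances of the hosts themselves ran from 0.04 for SNHG15 to 0.23 for SNHG8. The 5 genes were chosen for being nearest, so their smaller distances follow from the choice.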

How the data were processed

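Expression was deposited as log2 values that the authors computed by RMA from 4 arrays (NT and siRAB38, 2 each) of WT Plus labelled RNA. The tools listed in the submitters' processing notes are affy 1.60.0 and R 3.5.1. How probes were grouped into rows and the genome build are not given in the sources used here. Rows were named through the platform annotation, which gave a single symbol to 22458 of 23786 rows and left 1328 unnamed. Array medians ran from 3.47 to 3.51, and the number of arrays limits the precision.

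The deposited log2 values were compared by lmFit and eBayes of limma 3.58.1 (R 4.3.3, prior degrees of freedom of 3.15), siRAB38 minus NT, with Benjamini-Hochberg adjustment over all named genes and no filter. The paper's methods state no gene model for the arrays. The fit was tested on simulated data. Lists were written from general knowledge. The members and lists were chosen with earlier results of these data known. Every measured member is named, and from each other list up to 4 genes with the smallest p, with neighbours and most alike genes by fixed rules. Genes named beyond this (the split by snoRNA kind, SNORA16A, SNORA44, SNORD76, SNORD99 and LARP1 among them) were chosen after their values were seen or as background. Other scalings, filters, priors, weights, tests, the replicate block and leaving out each array were tried.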

Additional observations from a re-analysis of the deposited data

How the results depend on the processing

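No gene passed an adjusted p of 0.05 under any alternative run. The median log2 fold change of the hosts stayed below 0 throughout, from -0.16 with each array centred on its own median to -0.13 with a second quantile normalization, and from -0.29 to -0.10 with 1 array left out. The 5 hosts with separate groups became 6 after median centring, where 21% of all genes were separate, and 6 or 7 with 1 array left out (31.5% to 34.7% of all genes). The 2 hosts lower at an unadjusted p under 0.05 became 0 with the methods' t-test, where 3.1% of all genes were lower. Their count also fell in most of the runs with 1 array left out, in which 1 group holds 1 array. Direction turned in 3 cases, SNHG6 (0.0059 without NT replicate 1, range -0.10 to 0.0059), SNHG5 (0.21 without NT replicate 2, range -0.30 to 0.21) and GAS5 (0.032 without NT replicate 2, range -0.31 to 0.032). Of the 54 single-host values from the 6 settings that can move a log2 fold change, 51 kept their direction, and the other 7 settings change only its error or which genes are tested. Over all genes the deviations of same-numbered arrays correlated at -0.05, so the numbers were not taken as pairs, although the second array exceeded the first in both groups in 67.7% of the hosts' snoRNAs. With the replicate block the median was -0.14 and 2 hosts were lower at an unadjusted p under 0.05 (2.59% of all genes), so the block changed no call. Where 1 array is left, it is assumed to vary like the other group. Counts of separate groups use no fit, so priors, weights, tests and the block do not bear on them.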
